A study of Mus musculus with 135 samples.

Results

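The genes of the Wnt and beta-catenin signal that forms and keeps the blood-brain barrier were followed through the cortex and the hippocampus of sickle cell mice under social stress. They were chosen by symbol, as the rows of both count tables named Ctnnb1, Wnt7a, Wnt7b, Adgra2, Reck, Fzd4, Lrp5, Lef1, Axin2 or Apcdd1, which gave 10 of the 55416 genes listed. All 10 passed the filter on low counts in every comparison, and the fewest reads on any of them in a library used were 81 in the cortex and 67 in the hippocampus, both for Lef1.

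In brain vessels, Wnt7a and Wnt7b from neural cells reach endothelial cells, where Reck binds the ligand and Adgra2 helps to hand it to a Frizzled receptor such as Fzd4 with its co-receptor, of which Lrp5 is one. The signal spares beta-catenin (Ctnnb1) from breakdown, and beta-catenin then enters the nucleus and works with DNA-binding partners such as Lef1, keeping transporters and junction proteins of the barrier expressed. Axin2 and Apcdd1 are targets of the pathway that also dampen it. Each of these genes is expressed outside vessels too, the RNA level of Ctnnb1 does not show how much of the protein is spared, and in a bulk tissue sample fewer cells of a type and less RNA per cell cannot be told apart.

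The mice were male Townes mice, in which human globin genes stand in for the mouse ones. SS mice carry the sickle allele and AA mice the normal adult allele, so that the AA controls share the globin replacement. Both genotypes were kept undisturbed, were exposed to repeated social defeat (RSD, in which an aggressive male intruder enters the home cage on successive days), received the antibiotic minocycline in the drinking water, or had both, and brains were taken after behavioural tests. There are thus 4 groups of each genotype, written for SS mice as SS, SS + minocycline, SS + RSD and SS + RSD + minocycline, and named the same way for AA mice. Ages are not given in the labels, and AA or SS alone means neither defeat nor drug.

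The labels placed 134 libraries in a group, 68 of the cortex and 66 of the hippocampus, of which 65 and 63 were used. In each tissue the libraries of mice 9887 (SS + minocycline) and 9877 (AA + RSD + minocycline) held identical counts under different labels, and both were left out. The libraries of mouse 9674 (AA + RSD) were left out as well, because of their place on a scale between the tissues. AA and SS libraries together set the scale, with their cortex mean at 0% and their hippocampus mean at 100%. On it the library of mouse 9674 labelled cortex stood at 98.5% and the one labelled hippocampus at -1.86%. All other cortex libraries lay from -4.98% to 45.9% and the other hippocampus libraries from 57.6% to 110%. Among the cortex libraries used, 5 stood apart on this scale, those of SS + RSD mouse 9621 (32.95%), SS + RSD + minocycline mice 9890 (33.6%), 9813 (39.8%) and 5801 (45.9%) and AA + RSD + minocycline mouse 5646 (40.4%), where the next stood at 11.05%. Among the hippocampus libraries used, that of SS + RSD + minocycline mouse 9810 had the 57.6%, and the next stood at 79.35%. These 6 libraries were kept, and results whose call changes without them are given both ways. Among SS mice the cortex comparisons then held 8 without treatment, 4 with minocycline, 6 with RSD and 14 with RSD and minocycline, and among AA mice 12 without treatment, 2 with RSD and 18 with RSD and minocycline. In the hippocampus the untreated groups were smaller by 1 library each, at 7 SS and 11 AA mice, and the treated groups were as large. The single AA + minocycline mouse entered no comparison. The cortex libraries used held 16295042 to 107713193 reads on genes, and the hippocampus libraries 12869149 to 68731008.

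Some libraries went against their genotype label. Alas2, an enzyme of heme synthesis in immature red blood cells, had a log2 CPM of 1.77 to 4.40 in the cortex of other AA mice and 5.77 to 7.50 in that of other SS mice, but 6.59 in the library labelled AA mouse 5844, 5.71 in that labelled AA + RSD + minocycline mouse 5853 and 2.80 in that labelled SS + RSD + minocycline mouse 7078. The libraries labelled AA mouse 9631 held 1944 reads (cortex) and 1570 reads (hippocampus) of the mouse globin gene Hbb-bs, which the human genes should replace. These 4 mice stayed under their labels, and the genotype values with the smallest p among the 10 genes are also given without them.

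The numbers that name the mice fall in separate ranges, which were joined here into series A, B and C, and the series follow the treatments. Series A holds mice 5349 to 5400 and 9615 to 9674, and series B mice 5645 to 5900 and 9810 to 9910. Series C holds mice 7037 to 7121 and 10633 to 10639, and the labels name no series. All SS + RSD and AA + RSD mice carry series A numbers, and all mice with RSD and minocycline carry series B or C numbers. Among the controls, 4 AA and 2 SS mice of the cortex and 3 AA and 2 SS mice of the hippocampus belong to series A, and the rest belong to series B. The share of reads that fell outside annotated genes differed between groups, but not by series alone. In AA cortex of series B it was 4.68% and 5.69% in mice 9836 and 5844, later in the sample order, and 8.13% to 10.3% in the others. Its median in the cortex was 4.18% in SS + RSD mice, 9.75% in SS mice and 9.76% in SS + RSD + minocycline mice, and in the hippocampus it was 4.38%, 7.83% and 9.32%.

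In GRCm39, with GENCODE annotation, the ligand gene Wnt7a lies on chromosome 6 (91340959 to 91388460, minus strand) and Wnt7b on chromosome 15 (85419638 to 85466674, minus). The co-receptor genes Adgra2 and Reck lie on chromosomes 8 (27575514 to 27613464, plus) and 4 (43875514 to 43944806, plus). The receptor genes Fzd4 and Lrp5 lie on chromosomes 7 (89053563 to 89062342, plus) and 19 (3634821 to 3736643, minus). Ctnnb1 lies on chromosome 9 (120757422 to 120789579, plus), Lef1 on chromosome 3 (130903919 to 131018005, plus) and Axin2 on chromosome 11 (108811169 to 108841609, plus). These genes and Apcdd1 are protein coding. The strand setting of the counting is not given in the sources used here, so overlaps with genes of the opposite strand leave a doubt, which is greatest for Lef1 (16.3% of exonic bases, mainly Lef1os1) and Ctnnb1 (11.4%, mainly Ulk4). The other genes had 7.29% or less.

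The TCF/LEF family, the DNA-binding partners of beta-catenin, binds the letters CTTTGAT, and matches are shown because the genes that hold it, Axin2, Ctnnb1 and Reck, are followed closely in the comparisons. Within 1000 bases on either side of the annotated gene start, the motif, searched on both strands (reverse complement ATCAAAG), was present in 3 of the 10 genes and in 23.8% of 21770 protein-coding genes. The window was chosen after shorter RefSeq promoter windows of 300 bases (GRCm38.p6) had been searched, in which 0 of 10 windows of 6 member genes and 3.73% of 32851 windows in all held it. The sequences are from GRCm39, plus strand, which is the strand of each gene, with the motif in capitals. A match is a description of the letters and not of binding.
Axin2, chr11:108811242-108811270, 84 bases after the gene start, in an exon: agccggctgcgCTTTGATaaggtcctggc
Axin2, chr11:108812047-108812075, 889 bases after the start, outside exons: cggccggcgcgCTTTGATgtgcggggcgg
Ctnnb1, chr9:120756750-120756778, upstream of the gene: gaagaaaaaggCTTTGATaaaaacaaaag
Reck, chr4:43874891-43874919, upstream of the gene: caatgaattcgCTTTGATtcctaggtcct

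Levels are given as CPM, counts brought to a common total of reads on genes, without further scaling, and between genes only as CPM per kilobase of exon. On that scale Ctnnb1 was the most abundant of the genes, with 48.9 ± 7.73 CPM per kilobase in the cortex (SD, n = 65 libraries) and 60.4 ± 5.87 in the hippocampus (n = 63). Wnt7b followed with 5.80 ± 1.12 and 8.45 ± 1.16, and Axin2 with 4.01 ± 0.780 and 3.74 ± 0.896. Wnt7a stood at 2.70 ± 0.689 in the cortex and 3.66 ± 0.654 in the hippocampus, level with Axin2 in the latter. Reck, Adgra2 and Fzd4 could not be ordered beyond their spread, at 2.12 ± 0.588, 2.11 ± 0.454 and 2.11 ± 0.441 in cortex and at 2.33 ± 0.627, 2.37 ± 0.604 and 2.54 ± 0.623 in the hippocampus. Apcdd1 (1.74 ± 0.341 and 2.08 ± 0.285) overlapped with them, and Lrp5 (1.04 ± 0.168 and 1.30 ± 0.251) and Lef1 (0.656 ± 0.163 and 0.635 ± 0.158) were the least abundant.

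**Figure D1:**
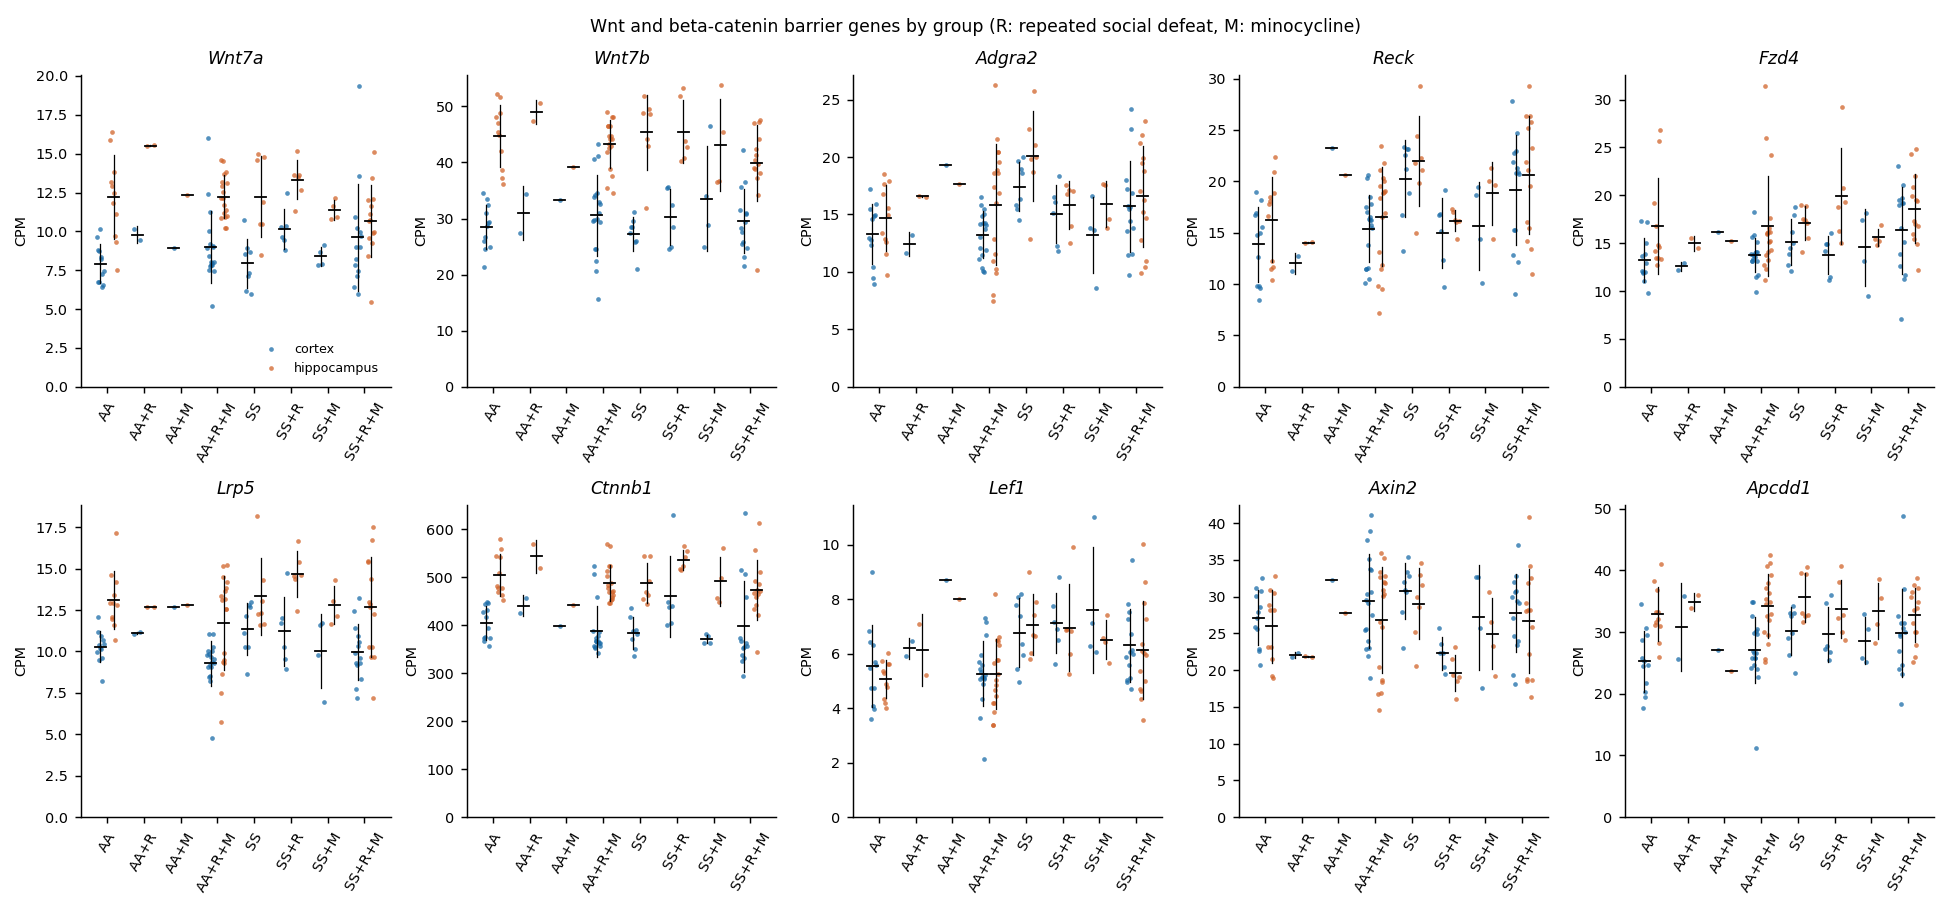
CPM of each of the 10 genes (vertical axes, each starting at 0) by group (horizontal axis) in the cortex (blue) and the hippocampus (orange). Points are libraries, 1 per mouse, horizontal lines are means and vertical lines are SD. Ctnnb1, Wnt7a and Wnt7b lay higher in the hippocampus in most groups.

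The tissues were compared in AA mice, which had neither defeat nor drug. The main fit has no term for the mouse, though the same mice gave both tissues. In this comparison 5 of the 10 genes were called at an adjusted p under 0.05 by edgeR's quasi-likelihood test, all of them higher in the hippocampus, where 26.7% of all 24187 genes tested were called. At an unadjusted p under 0.05 there were 6 of the 10 (background 33.7%). The median log2 fold change of the 10 genes was 0.29, beside 0.016 over all genes. They were both ligands, beta-catenin itself, the co-receptor Lrp5 and the inhibitor Apcdd1.

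Wnt7b was 21.4 to 34.5 CPM in the 12 cortex libraries (median 28.9) and 36.2 to 52.1 CPM in the 11 hippocampus libraries (median 45.4), so that the ranges did not meet. Its means were 28.5 ± 3.94 and 44.7 ± 5.55 CPM, a log2 fold change of 0.61 (SE, the standard error, 0.11, adjusted p = 3.19e-06), and it was higher in the hippocampus in 11 of 11 mice with both tissues. Wnt7a, the other ligand, was 6.45 to 10.1 CPM in the cortex (median 7.84) and 7.49 to 16.4 CPM in the hippocampus (median 12.5), with 8 of 11 hippocampus libraries above every cortex library. Its log2 fold change was 0.58 (SE 0.13, adjusted p = 0.000134), with the hippocampus higher in 11 of 11 mice. Both ligand genes thus stood about as far apart between the tissues.

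Ctnnb1, the signal transducer and also a partner of cadherins at cell junctions, was 357 to 449 CPM in the cortex (median 405) and 451 to 580 CPM in the hippocampus (median 482). No hippocampus library reached down to the cortex range, and the log2 fold change was 0.28 (SE 0.09, adjusted p = 0.00908). Lrp5 had 10.3 ± 0.958 CPM in the cortex and 13.1 ± 1.75 CPM in the hippocampus, a log2 fold change of 0.31 (SE 0.10, adjusted p = 0.0134), higher in 11 of 11 mice. Apcdd1, a membrane protein that inhibits Wnt signaling, had 25.3 ± 4.995 and 32.99 ± 4.36 CPM (log2 fold change 0.36, SE 0.10, adjusted p = 0.00407), higher in 10 of 11 mice.

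Reck, Adgra2, Lef1, Axin2 and Fzd4 were not called between the tissues. Reck had a log2 fold change of 0.20 (adjusted p = 0.356) and Adgra2 0.11 (adjusted p = 0.649). Lef1 had -0.16 (adjusted p = 0.439) and Axin2 -0.10 (adjusted p = 0.611). Fzd4, the Frizzled receptor that also serves the ligand Norrin, had 13.2 ± 2.33 CPM in the cortex and 16.8 ± 5.02 CPM in the hippocampus, a log2 fold change of 0.30 (SE 0.13, adjusted p = 0.0692), and it was called in the fit with the mouse as a block (0.26, adjusted p = 0.049998), where 35.6% of all genes were called.

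**Figure D2:**
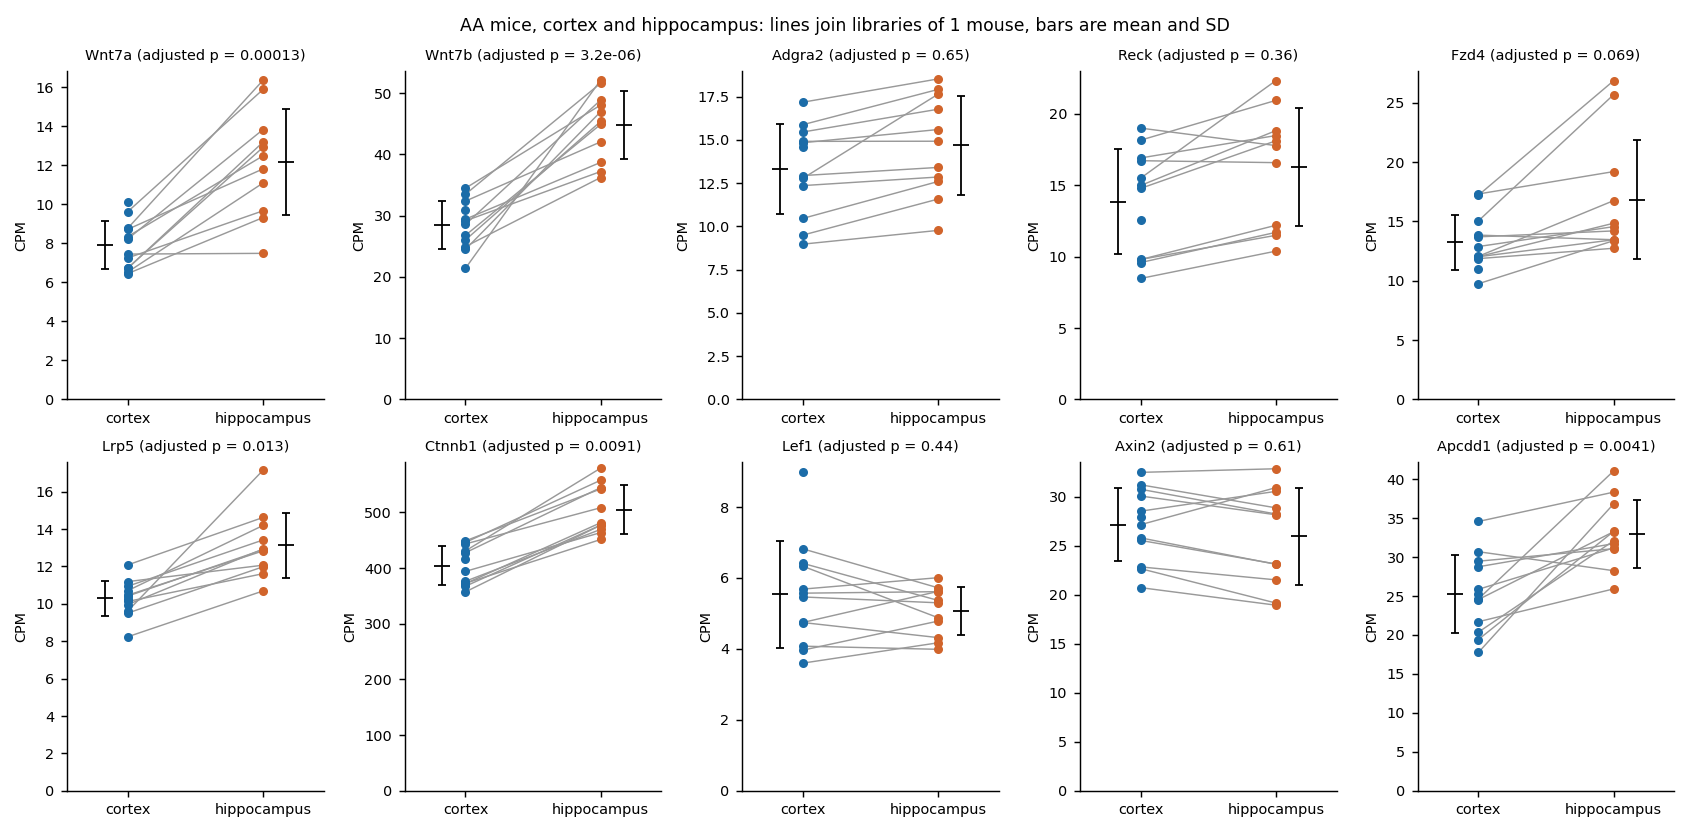
CPM of the 10 genes (vertical axes from 0) in the cortex and the hippocampus of AA mice, with gray lines joining the libraries of 1 mouse and black marks for mean and SD. Wnt7b and Ctnnb1 separated the tissues in every library, and the ranges of Axin2 and Lef1 overlapped.

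Markers of other cells moved between the tissues as well, in a comparison where 26.7% of all genes tested were called. All 10 choroid plexus markers, genes of the epithelium that makes cerebrospinal fluid, were called higher in the hippocampus, with a median log2 fold change of 3.81. Of 10 markers of dentate granule cells, 7 were called higher and 1 lower (median 1.55), of 12 endothelial markers 0 were called higher and 2 lower (Cd34 at -1.22 and Tek at -0.38, median -0.23), and of 10 neuronal markers 4 were called lower (median -0.21). Fzd4 moved with the choroid plexus markers inside the hippocampus. The 6 hippocampus libraries in which these markers summed to 3910 to 9814 CPM, most of it Ttr, had 24.2 to 31.4 CPM of Fzd4 (median 26.4), and the other 57 libraries, with sums of 24.8 to 3005 CPM, had 11.2 to 24.8 CPM (median 15.9). The correlation of Fzd4 with the summed markers after subtraction of group means was 0.63 over these 63 libraries and 0.22 over the 65 of the cortex, where libraries share depth and dissection. The part of these cells in the tissue differences was not tested.

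The rest of the pathway moved in both directions between the tissues. Of 111 other Wnt pathway genes in 8 lists 105 were tested, of which 26 were called higher and 26 lower in the hippocampus, with a median log2 fold change of 0.05. Of all 24187 genes tested, 26.7% were called in either direction. The intracellular inhibitor Nkd2 had 13.96 ± 3.96 CPM in the hippocampus and 4.05 ± 0.841 CPM in the cortex (log2 fold change 1.75, adjusted p = 3.22e-24). The receptor kinase gene Ror1 (2.93), the ligand gene Wnt11 (2.46), the target gene Jun (1.48), the nuclear cofactor gene Pygo1 (0.81) and the Apc-binding Amer3 (0.72) were also higher by the log2 fold changes given. Rspo1, a secreted agonist, had 1.77 ± 0.750 CPM in the hippocampus and 15.7 ± 2.46 CPM in the cortex (-3.18), and the ligand gene Wnt10a had 2.86 ± 0.875 and 11.9 ± 2.11 CPM (-2.08). Of 16 barrier genes known to depend on endothelial beta-catenin, 2 were called higher, Cldn3 at 2.04 and Slc38a5 at 0.69, and 1 lower, Abcb1a at -0.26, with a median of 0.015. Cldn3 was near 0 in both tissues, with 0.0737 ± 0.0677 CPM in the cortex.

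The genotypes were compared first in mice without defeat or drug, whose brains were also taken after the behavioural tests. None of the 10 genes was called in either tissue, beside 0.206% of 22870 genes (cortex) and 0.158% of 23372 (hippocampus). DESeq2 called 0 as well, and at an unadjusted p under 0.05 there were 2 of the 10 in the cortex (background 7.18%) and 3 in the hippocampus (3.83%). The genes with the smallest p were Reck and Adgra2, the co-receptor pair that recognises Wnt7, and Lef1, and each had its higher level in SS mice. The share of reads outside genes was also higher in SS mice, with medians of 9.75% against 6.91% in the cortex and 7.83% against 6.49% in the hippocampus, and with this share as a term Reck was at 0.33 and 0.36, Adgra2 at 0.26 and 0.37 and Lef1 at 0.25 and 0.45 in cortex and hippocampus.

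Reck was 8.48, 14.9 and 19.01 CPM (lowest, median, highest) in the cortex of 12 AA mice and 13.2, 21.9 and 23.3 CPM in 8 SS mice, and 5 of the 8 lay above every AA mouse. The log2 fold change was 0.47 (SE 0.15, adjusted p = 0.32). Adgra2 was 8.98, 13.8 and 17.2 CPM in AA and 14.54, 17.5 and 19.99 CPM in SS mice, 4 of 8 above every AA mouse (log2 fold change 0.32, SE 0.11, adjusted p = 0.604). The ranges overlapped for both genes, and neither passed the test.

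In the hippocampus Lef1, the DNA-binding partner of beta-catenin, was 3.99, 5.30 and 6.01 CPM in 11 AA mice and 5.81, 6.68 and 9.01 CPM in 7 SS mice. The level in 6 of the 7 SS mice exceeded that of every AA mouse, and the log2 fold change was 0.46 (SE 0.14, adjusted p = 0.434). Adgra2 was 9.77, 14.9 and 18.5 CPM in AA and 12.9, 20.03 and 25.7 CPM in SS mice, also with 6 of 7 above every AA mouse (0.43, SE 0.16, adjusted p = 0.917). Reck had 16.3 ± 4.13 and 21.97 ± 4.34 CPM (0.41, SE 0.16, adjusted p = 0.943), with 2 of 7 SS mice above the AA range.

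The other genes stood closer to 0 between the genotypes. Ctnnb1 had 404 ± 34.6 CPM in AA and 383 ± 33.1 CPM in SS cortex (log2 fold change -0.16, SE 0.11, adjusted p = 0.709) and 505 ± 43.9 and 488 ± 41.6 CPM in the hippocampus (-0.08, SE 0.09, adjusted p = 1). The ligands had log2 fold changes of -0.08 (Wnt7a) and -0.15 (Wnt7b) in the cortex, and Wnt7a had -0.015 in the hippocampus. In cortex and hippocampus respectively, Axin2 had 0.10 and 0.14, and Apcdd1 0.18 and 0.09. Fzd4 and Lrp5 had 0.11 and 0.06 in the cortex.

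The direction of Reck, Adgra2 and Lef1 was the same within each number series. Within series A, the log2 fold changes in cortex and hippocampus were 0.52 and 0.64 for Reck, 0.39 and 0.45 for Adgra2 and 0.17 and 0.71 for Lef1. Within series B they were 0.44 and 0.34, 0.31 and 0.41, and 0.29 and 0.35. Reck was itself lower in series A, with 8.48 to 12.6 CPM in AA cortex against 9.59 to 19.01 CPM in series B. Without the 4 mice whose libraries went against their genotype, Reck had 0.50 (adjusted p = 0.262) and Adgra2 0.34 (adjusted p = 0.596) in the cortex, and Lef1 had 0.46 (adjusted p = 0.299), Adgra2 0.41 and Reck 0.38 (adjusted p = 1 for both) in the hippocampus.

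**Figure D3:**
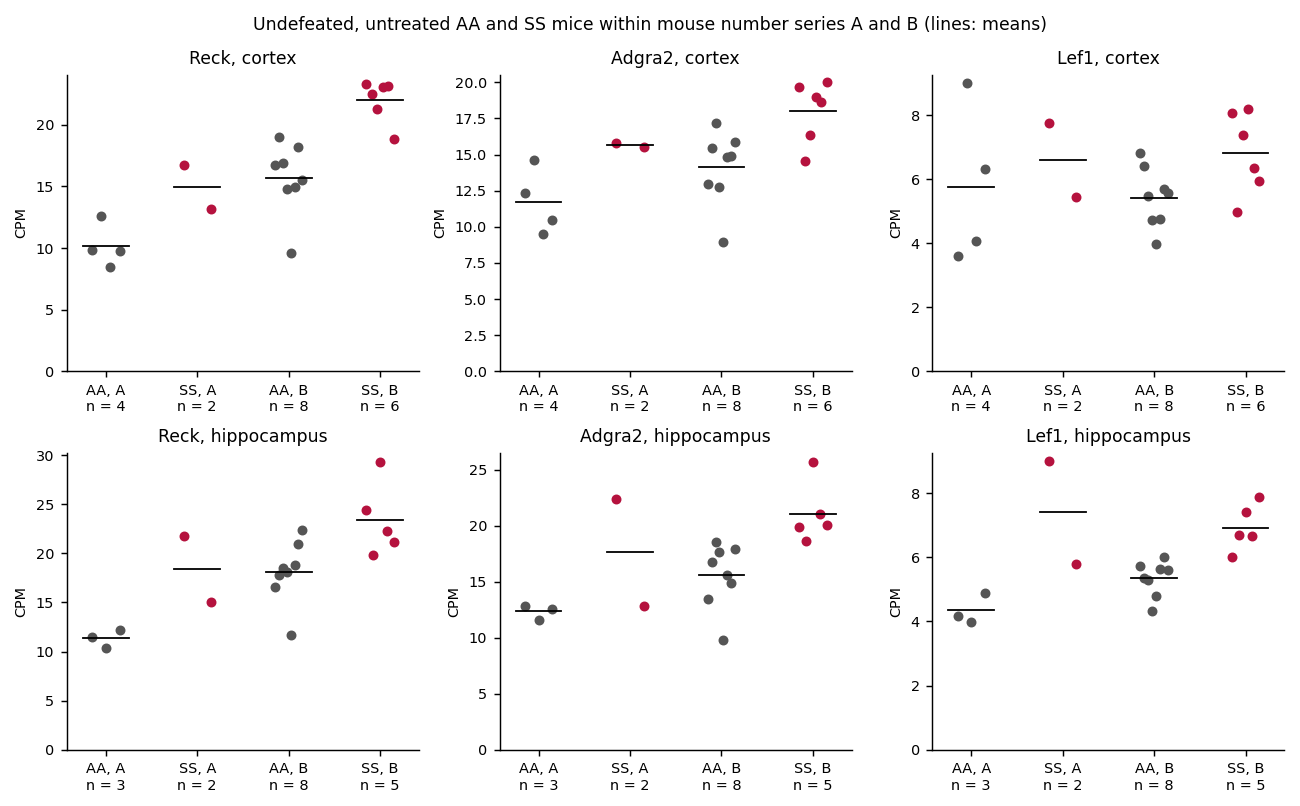
CPM of Reck, Adgra2 and Lef1 (vertical axes from 0) in the cortex and the hippocampus of AA (gray) and SS (red) mice without defeat or drug, within number series A and B. Points are mice and lines are means, and each SS mean lay above the AA mean of the same series.

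A few vascular markers were called between the genotypes. The 12 endothelial markers summed to 378 ± 47.3 CPM in the cortex of AA and 477 ± 25.0 CPM in that of SS mice, and to 284 ± 27.7 and 375 ± 43.8 CPM in the hippocampus, and Kdr (0.71 and 0.64) and Esam (0.48 and 0.49) were called higher, 2 of 12 in each tissue. All 10 pericyte and smooth muscle markers had a positive log2 fold change in each tissue, with medians of 0.37 and 0.56. Across mice, after subtraction of group means, the summed endothelial markers correlated at 0.07 (cortex) and 0.32 (hippocampus) with Reck, -0.11 and 0.33 with Adgra2 and 0.49 and 0.64 with Lef1, and the part of these cells in the genotype values was not tested. Of the 16 barrier genes, 14 had a positive log2 fold change in the cortex (median 0.19, beside -0.05 over all genes) and 13 in the hippocampus (median 0.26, beside 0.0096). The 1 called was Sox17, an endothelial transcription factor, with 5.75 ± 1.47 CPM in AA and 10.1 ± 1.95 CPM in SS cortex (log2 fold change 0.74, SE 0.13, adjusted p = 0.000733). Slc2a1, the glucose transporter of the barrier, had 116 ± 11.3 and 148 ± 14.7 CPM in the cortex (0.28, adjusted p = 0.678) and 118 ± 6.12 and 152 ± 11.4 CPM in the hippocampus (0.35, adjusted p = 0.425). Of the 105 other Wnt pathway genes tested, 0 were called in either tissue.

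The genotypes were compared again in the larger groups given both RSD and minocycline, with 14 SS and 18 AA mice. None of the 10 genes was called by edgeR or DESeq2, beside 0.599% of all genes (cortex) and 2.73% (hippocampus), and 2 and 3 of the 10 had an unadjusted p under 0.05 (background 8.9% and 8.54%). Reck had the smallest p among them in both tissues. It was 10.1, 16.2 and 20.6 CPM in the cortex of AA and 9.00, 20.9 and 27.9 CPM in that of SS mice, a log2 fold change of 0.28 (SE 0.11, adjusted p = 0.397), with 9 of 14 SS mice above the AA range. In the hippocampus it was 7.21, 18.6 and 23.4 CPM and 11.01, 21.5 and 29.2 CPM (0.31, SE 0.12, adjusted p = 0.228). The SS mice reached higher, and the ranges overlapped in both tissues.

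Adgra2 had 13.2 ± 2.07 CPM in AA and 15.7 ± 3.98 CPM in SS cortex in these groups (0.21, SE 0.09, adjusted p = 0.419), and 15.9 ± 5.28 and 16.6 ± 4.40 CPM in the hippocampus (0.06, SE 0.12, adjusted p = 0.981). The highest AA level of Adgra2 in this tissue was that of mouse 5853, one of those whose library went against its genotype. Wnt7a had 12.2 ± 1.39 and 10.7 ± 2.30 CPM in the hippocampus (-0.21, SE 0.10, adjusted p = 0.522). Ctnnb1 had 387 ± 52.3 and 398 ± 94.9 CPM in the cortex (-0.0015, adjusted p = 0.998) and 487 ± 37.7 and 474 ± 62.5 CPM in the hippocampus (-0.05, adjusted p = 0.979). In the cortex 1 of 14 SS mice lay above and 4 below every AA mouse. Without the 4 mice whose libraries went against their genotype, the values were 0.34 (adjusted p = 0.209) and 0.37 (adjusted p = 0.0952) for Reck, 0.23 (adjusted p = 0.356) and 0.12 (adjusted p = 0.982) for Adgra2 and 0.24 (adjusted p = 0.533) and 0.31 (adjusted p = 0.0921) for Lef1 in cortex and hippocampus, and -0.22 (adjusted p = 0.474) for Wnt7a in the hippocampus.

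Barrier genes did pass the test here. Slc2a1 was called higher in SS mice in both tissues, with 147 ± 35.9 against 99.6 ± 19.6 CPM in the cortex (log2 fold change 0.52, adjusted p = 0.00122) and 146 ± 37.8 against 106 ± 11.5 CPM in the hippocampus (0.45, adjusted p = 0.00032), and it was called under each of 12 alternatives in either tissue. In the cortex Sox17 (0.42, adjusted p = 0.0182) was called as well, and in the hippocampus Abcb1a, the drug efflux pump (0.36, adjusted p = 0.00415), and Slc7a5, an amino acid transporter (0.23, adjusted p = 0.0104, called in 10 of 12 alternatives). In the cortex all 16 barrier genes, and in the hippocampus 13, had a positive log2 fold change, with medians of 0.17 and 0.12, and the endothelial markers had medians of 0.20 and 0.22. Among the other Wnt pathway genes the ligand gene Wnt10b was called in the cortex (2.25 ± 0.849 against 1.31 ± 0.442 CPM, 0.74, adjusted p = 0.0205), but not without the cortex libraries that stood apart on the tissue scale (0.61, adjusted p = 0.256). Rspo1 was called in the hippocampus (1.047, adjusted p = 0.0388), where the median of SS mice was 1.24 CPM, near the 1.22 CPM of AA mice, and the highest SS mouse, 9810, had 20.3 CPM. Without that mouse it was at 0.11 and not called (adjusted p = 0.99996).

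Defeat was examined in SS mice by comparing SS + RSD with SS mice. None of the 10 genes was called by edgeR in either tissue, beside 2.57% of 19906 genes (cortex) and 3.11% of 20701 (hippocampus), and 3 and 4 of them had an unadjusted p under 0.05 (background 27.7% and 19.6%). Axin2, the feedback inhibitor that is read as a target of the pathway, had a lower level in SS + RSD mice in both tissues, and DESeq2 called it in each (cortex -0.38, adjusted p = 0.0439, and hippocampus -0.47, adjusted p = 0.0486), where DESeq2 called 10.5% and 7.19% of all genes. It was also called by edgeR when libraries were scaled by reads on genes, beside 7.61% and 5.58%. Ctnnb1 had a higher level in SS + RSD mice.

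Axin2 was 19.5, 20.4, 22.3, 22.3, 23.5 and 25.7 CPM in the cortex of the 6 SS + RSD mice and 23.04, 31.5 and 35.3 CPM (lowest, median, highest) in 8 SS mice. Of the 6 SS + RSD mice, 4 lay below every SS mouse, and the log2 fold change was -0.34 (SE 0.13, adjusted p = 0.102). In the hippocampus it was 16.1, 18.5, 19.1, 19.3, 21.5 and 23.2 CPM in SS + RSD mice and 20.6, 29.9 and 34.6 CPM in 7 SS mice, again with 4 of 6 below every SS mouse (-0.46, SE 0.15, adjusted p = 0.0768). The ranges met only at the lowest SS mice.

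Those lowest SS mice were of series A, the series of all SS + RSD mice. In series A, the 2 SS mice had 23.04 and 27.9 CPM of Axin2 in the cortex and 20.6 and 25.1 CPM in the hippocampus, while SS mice of series B had 30.6 to 35.3 and 28.6 to 34.6 CPM. Within series A alone the log2 fold change of Axin2 was -0.17 in the cortex and -0.18 in the hippocampus, and with the share of reads outside genes as a term it was -0.06 and -0.33. Defeat and number series thus cannot be told apart for the SS mice of series B.

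Ctnnb1 was 401, 405, 437, 440, 448 and 629 CPM in the cortex of SS + RSD mice and 335, 384 and 437 CPM (lowest, median, highest) in SS mice, a log2 fold change of 0.38 (SE 0.14, adjusted p = 0.0935). Mouse 9621, whose library stood apart on the tissue scale, had the 629 CPM, and the other 5 lay within or just above the SS range. The other libraries that stood apart on that scale had 506 to 634 CPM, and over all 65 cortex libraries Ctnnb1 correlated at 0.63 with the summed markers of the thalamus after subtraction of group means, whose part in this difference was not tested. Without the libraries that stood apart, Ctnnb1 was at 0.27 (adjusted p = 0.0899). In the hippocampus it was 515 to 564 CPM in SS + RSD and 444 to 545 CPM in SS mice (0.24, SE 0.12, adjusted p = 0.25). Within series A alone the values were 0.12 and 0.14. A model of only the groups compared called Axin2 (-0.38, adjusted p = 0.0108), Ctnnb1 (0.34, adjusted p = 0.0265) and Wnt7a (0.43, adjusted p = 0.0356) in the cortex, beside 19.2% of all genes in that model, and Axin2 (-0.50, adjusted p = 0.026) in the hippocampus, beside 8.03%.

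**Figure D4:**
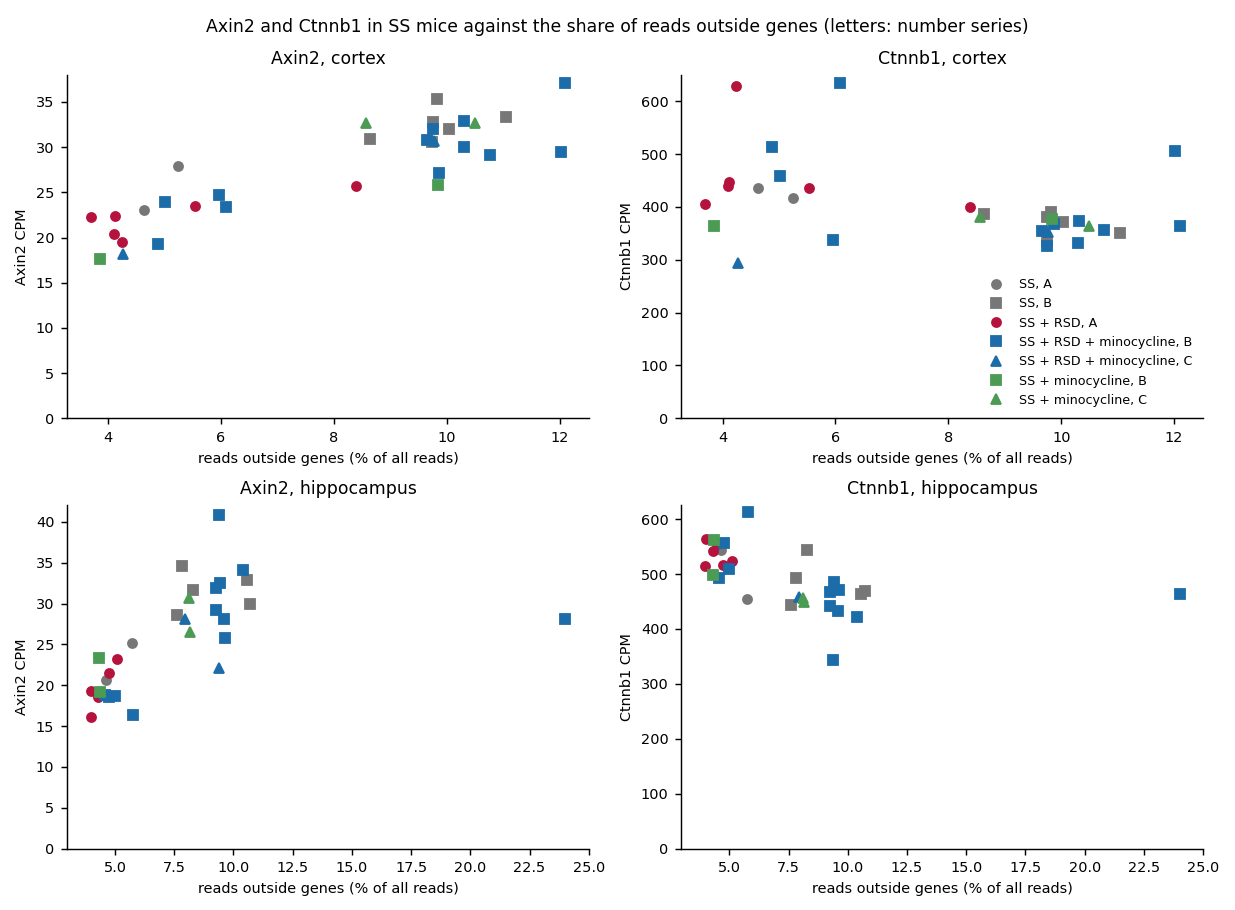
CPM of Axin2 and Ctnnb1 (vertical axes from 0) in each SS library against the percent of its reads outside annotated genes (horizontal axes), in the cortex and the hippocampus. Colors are groups and symbols are number series, and the SS + RSD mice, all of series A, lie at shares of 5.54% or less but for 1 cortex library at 8.39%.

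The ligand gene Wnt7a had 7.94 ± 1.60 CPM in SS and 10.2 ± 1.27 CPM in SS + RSD cortex (log2 fold change 0.47, SE 0.19, adjusted p = 0.118) and 0.22 in the hippocampus. The other genes had values of -0.31 and -0.33 (Reck), -0.09 and -0.24 (Adgra2), 0.27 and 0.10 (Wnt7b), 0.10 and 0.23 (Lrp5), 0.19 and 0.07 (Lef1) and 0.10 and 0.03 (Apcdd1) in cortex and hippocampus. Fzd4 had 17.1 ± 1.76 CPM in SS and 19.9 ± 5.01 CPM in SS + RSD hippocampus (0.32, adjusted p = 0.174). Without mouse 9615, which had 29.2 CPM of Fzd4 and 9424 CPM of choroid plexus markers, the value was 0.17 (adjusted p = 0.524).

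The scaling moved this comparison. The median log2 fold change of all genes was 0.08 in the cortex under TMM and -0.04 when libraries were scaled by their reads on genes, a shift of 0.12. Relative to the TMM median, Axin2 stood at -0.42 in the cortex and -0.51 in the hippocampus, Reck at -0.39 and -0.39, Ctnnb1 at 0.30 and 0.18 and Wnt7a at 0.39 and 0.16.

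Of the other Wnt pathway genes, 100 were tested in the cortex and 101 in the hippocampus, and the same 2 were called in each tissue, both lower in SS + RSD mice. Over all genes 2.57% were called in the cortex and 3.11% in the hippocampus. Tle2, a transcriptional co-repressor, had 47.6 ± 19.3 CPM in SS and 14.4 ± 2.596 CPM in SS + RSD cortex (log2 fold change -1.58, adjusted p = 0.0405) and 34.3 ± 13.9 and 11.6 ± 2.45 CPM in the hippocampus (-1.44, adjusted p = 0.044). Dvl2, which relays the signal from the receptor, had 27.3 ± 7.21 and 13.3 ± 1.16 CPM in the cortex (-0.91, adjusted p = 0.0405) and 30.6 ± 7.63 and 15.4 ± 2.13 CPM in the hippocampus (-0.87, adjusted p = 0.0465). With the number series as a term neither was called, at -0.26 and -0.32 for Tle2 and -0.22 and -0.39 for Dvl2. Leaving out mouse 5354, 5391, 9615, 9616 or 9621 ended both calls in both tissues as well (adjusted p from 0.0511 to 0.0899 in the cortex and from 0.0733 to 0.112 in the hippocampus), and leaving out the cortex libraries that stood apart, mouse 9621 among them, ended both calls in the cortex. Of the barrier genes, 0 of 15 in the cortex and 0 of 16 in the hippocampus were called by edgeR. Of the marker lists, 1 of 10 microglia genes was called higher in the cortex, and 0 of the astrocyte, oligodendrocyte and endothelial genes in either tissue by edgeR. The median log2 fold changes were 0.38 and 0.26 for astrocytes, 0.44 and 0.36 for microglia, 0.32 and 0.31 for oligodendrocytes and 0.09 and 0.17 for endothelium, beside 0.08 and 0.06 over all genes, and their part in the levels of the 10 genes was not tested.

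Minocycline was examined in defeated SS mice by comparing SS + RSD + minocycline with SS + RSD mice. This comparison shares the SS + RSD libraries with the last one, so a single set of 6 mice enters both with opposite sign. The groups share no number series, and from these groups alone series and drug cannot be told apart. Fits with the number series as a term take the difference between series A and B from the untreated SS mice, of which 2 in each tissue are of series A. None of the 10 genes was called by edgeR or DESeq2, beside 8.85% of all genes (cortex) and 5.96% (hippocampus), with 3 and 4 at an unadjusted p under 0.05 (background 26.4% and 26.8%).

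Ctnnb1 was 294, 360 and 634 CPM (lowest, median, highest) in the cortex of 14 SS + RSD + minocycline mice, and 10 of them lay below every SS + RSD mouse. The log2 fold change was -0.32 (SE 0.13, adjusted p = 0.0943). Without the 5 cortex libraries that stood apart on the tissue scale, 3 of which are in this group and 1 in SS + RSD, edgeR called Ctnnb1 lower with minocycline (-0.38, SE 0.09, adjusted p = 0.0148), beside 10.6% of all genes. Mice 5801 and 9890, left out there, come last in the sample order of this group, with 514 and 634 CPM. Their shares of reads outside genes were 4.87% and 6.09%, and the median of SS + RSD mice, later still in that order, was 4.18%. Mouse 9813, also left out, had 506 CPM, a higher share and an earlier place. Late mice 9895 (459 CPM) and 5875 (337 CPM) stayed in. The part of this choice in the call was not tested. In the hippocampus Ctnnb1 was 343, 469 and 613 CPM, with 12 of 14 below every SS + RSD mouse (-0.23, SE 0.10, adjusted p = 0.135), and without mouse 9810, the lowest, it was at -0.20 (adjusted p = 0.18). Mice 9895, 5875, 5801 and 9890, last of this group in the sample order, had 492 to 613 CPM and 4.56% to 5.77% of reads outside genes. The others, with shares of 7.95% or more, had 343 to 485 CPM, and the part of this split was not tested. Axin2 was 16.4, 28.1 and 40.9 CPM in the hippocampus, with 9 of 14 above every SS + RSD mouse (0.36, SE 0.13, adjusted p = 0.0841). In mice 9895, 5875, 5801 and 9890 Axin2 was 16.4 to 18.8 CPM, within the SS + RSD range of 16.1 to 23.2 CPM. In the others it was 22.1 to 40.9 CPM. The 40.9 CPM were those of mouse 9810, without which Axin2 was at 0.30 (adjusted p = 0.118), and in the cortex it had 27.8 ± 5.31 CPM (0.19, adjusted p = 0.294).

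Wnt7a had 10.7 ± 2.30 CPM in the hippocampus with minocycline and 13.3 ± 1.26 CPM without, 9 of 14 mice below every SS + RSD mouse (-0.38, SE 0.14, adjusted p = 0.0948), and without mouse 9810 it was at -0.33 (adjusted p = 0.109). Lrp5 had 9.97 ± 1.69 and 11.2 ± 2.10 CPM in the cortex (-0.29, SE 0.12, adjusted p = 0.119) and -0.29 in the hippocampus (adjusted p = 0.142). Lef1 had -0.29 (adjusted p = 0.189) and -0.25, Wnt7b -0.15 and -0.25, Reck 0.23 and 0.27, Fzd4 0.13 and -0.17, Apcdd1 -0.11 and -0.11 and Adgra2 -0.06 and -0.014 in cortex and hippocampus.

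Set beside the values for defeat, Axin2 stood at -0.34 and then 0.19 in the cortex, and at -0.46 and then 0.36 in the hippocampus. Ctnnb1 stood at 0.38 and then -0.32, and at 0.24 and then -0.23. With the number series as a term in the minocycline comparison, Axin2 was at -0.04 in the cortex and 0.02 in the hippocampus, Ctnnb1 at 0.04 and -0.03, and Wnt7a in the hippocampus at 0.15. With the share of reads outside genes as a term Axin2 was at -0.10 and 0.20 and Ctnnb1 at -0.17 and -0.10.

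**Figure D5:**
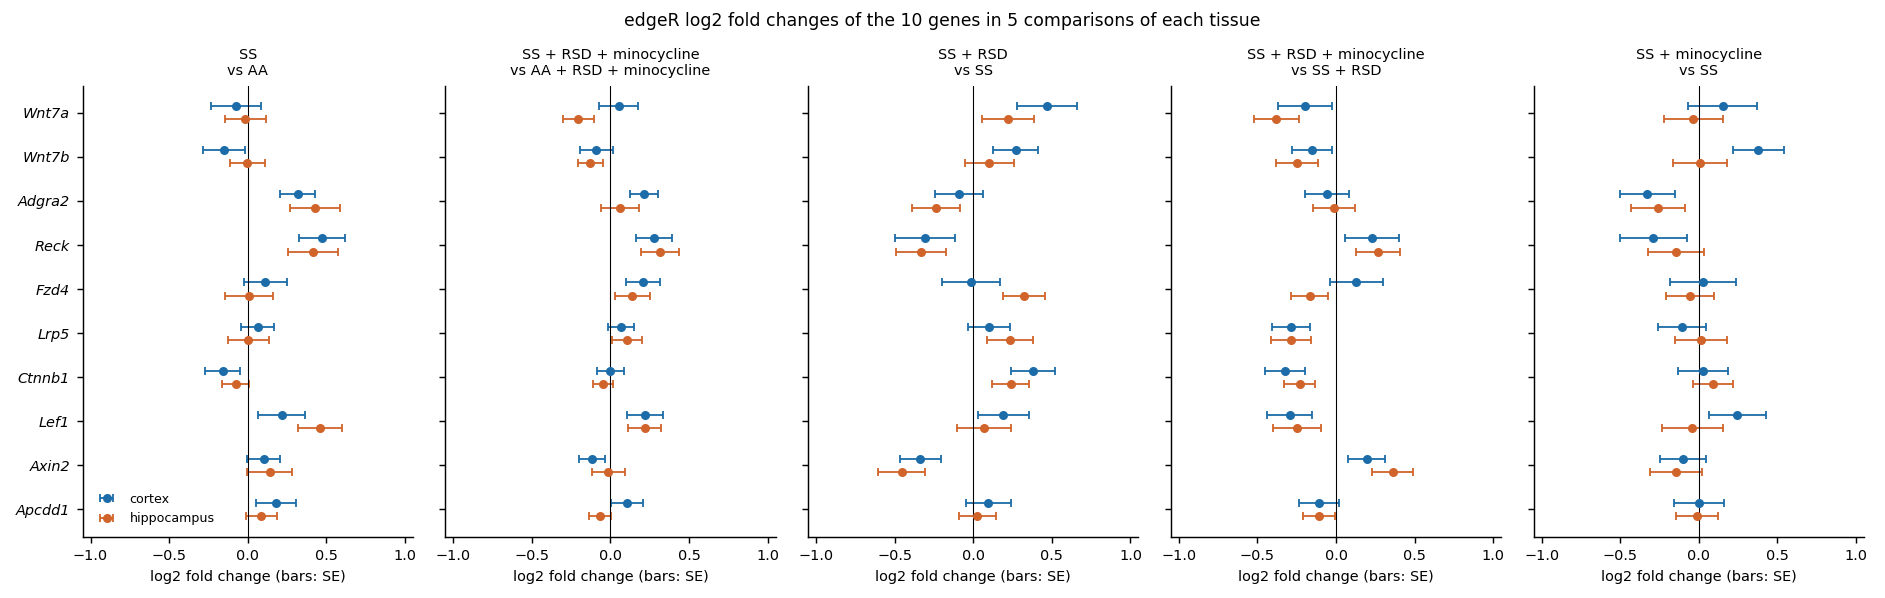
edgeR log2 fold changes (horizontal axes) with standard errors of the 10 genes (rows) in 5 comparisons, in the cortex (blue) and the hippocampus (orange). Reck and Adgra2 lie to the right of 0 in SS against AA mice, and Axin2 lies to the left in SS + RSD against SS mice and to the right with minocycline, where the SS + RSD libraries are shared.

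Of the other Wnt pathway genes, 3 of 100 in the cortex were called higher with minocycline and 4 lower, and 2 of 101 in the hippocampus higher and 2 lower. Over all genes 8.85% were called in the cortex and 5.96% in the hippocampus. Tle2 (1.503, adjusted p = 0.0103, and 1.38, adjusted p = 0.0289) and Dvl2 (0.88, adjusted p = 0.0109, and 0.71, adjusted p = 0.0499) were higher in both tissues, and Wnt10b (1.02, adjusted p = 0.0116) in the cortex. Tnfrsf19, a receptor that is itself a Wnt target, had 65.1 ± 9.98 against 80.4 ± 6.53 CPM in the cortex (-0.42, adjusted p = 0.0139) and 59.7 ± 4.95 against 70.7 ± 5.38 CPM in the hippocampus (-0.30, adjusted p = 0.0402). Wnt9b (-1.64, adjusted p = 0.0495, and -0.71, adjusted p = 0.0314) was lower in both tissues, at 0.182 ± 0.156 and 0.663 ± 0.163 CPM with minocycline, and Wnt2 (-0.61, adjusted p = 0.0438) and Fbxw11, which marks beta-catenin for breakdown (-0.26, adjusted p = 0.0383), in the cortex. With the number series as a term each of these calls was lost, and Tle2 was at -0.21 and -0.11, against the direction above. The calls of Fbxw11 and Wnt9b in the cortex were lost without any 1 of the 6 SS + RSD mice (adjusted p from 0.0548 to 0.116) and without the libraries that stood apart, that of Wnt2 without any but mouse 5354, and all 4 calls in the hippocampus without mouse 5354, 5391, 9615 or 9616 (from 0.0571 to 0.107). Those of Tnfrsf19 and Dvl2 in the hippocampus were also lost without mouse 9810. Of the barrier genes 0 were called by edgeR, with medians of -0.12 and -0.19. The endothelial markers had medians of -0.31 (3 called lower, Tek, Cdh5 and Pecam1) and -0.34 (2 called lower, Kdr and Pecam1), and those of astrocytes -0.36 and -0.29.

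Minocycline without defeat was compared in 4 SS + minocycline and 8 or 7 SS mice. By edgeR 0 of the 10 genes and 0% of all genes were called in either tissue, DESeq2 called 0 of the 10, and 1 of the 10 in the cortex and 0 in the hippocampus had an unadjusted p under 0.05 (background 7.06% and 2.17%). Within series B, with 2 SS + minocycline mice, edgeR called 2 of the 10 in the cortex, Reck and Wnt7b, beside 27.1% of all genes. In the sample order both of these mice come after every SS mouse of series B, and the part of that order was not tested. Wnt7b was 25.0, 28.8, 33.98 and 46.5 CPM in the cortex of SS + minocycline mice, the highest in mouse 9889, and 21.04 to 31.2 CPM in SS mice (0.38, SE 0.16, adjusted p = 0.67). Adgra2 was 8.64, 13.6, 13.8 and 16.6 CPM in the cortex (-0.33, SE 0.18, adjusted p = 0.737) and 13.9, 14.6, 17.6 and 17.7 CPM in the hippocampus (-0.26, SE 0.17, adjusted p = 0.981). Only mouse 9889, lowest in Adgra2 and highest in Wnt7b in the cortex, stood clearly outside the SS range in both genes.

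Ctnnb1 had 371 ± 9.05 CPM in the cortex of SS + minocycline mice (0.03, adjusted p = 0.987) and 491 ± 51.7 CPM in the hippocampus (0.09, adjusted p = 0.981), within the range of SS mice but for 1 hippocampus library at 562 CPM. Axin2 was 19.2, 23.3, 26.5 and 30.7 CPM in the hippocampus (-0.14, SE 0.17, adjusted p = 0.981). Of the 15 barrier genes tested in the cortex 1 had a positive log2 fold change (median -0.21) and of the 16 in the hippocampus 8, and 0 were called by edgeR. The median over all genes was 0.038 in the cortex and 0.033 in the hippocampus.

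In AA mice, AA + RSD was represented by mice 9643 and 9646. By edgeR and DESeq2, 0 of the 10 genes were called against AA mice in the cortex (0% of all genes) or the hippocampus (0.0419%), and 0 had an unadjusted p under 0.05 (background 5.25% and 3.89%). Axin2 was 21.8 and 22.3 CPM in the cortex of AA + RSD mice, at the low end of the 20.7 to 32.5 CPM of AA mice (-0.29, SE 0.19, adjusted p = 0.822). Wnt7a was 9.42 and 10.2 CPM in the cortex (0.31, SE 0.24, adjusted p = 0.835) and 15.5 CPM in each mouse in the hippocampus, where AA mice had 7.49 to 16.4 CPM (0.33, SE 0.19, adjusted p = 0.899). Lef1 was 5.21 and 7.07 CPM in the hippocampus (0.27, SE 0.21, adjusted p = 0.899). Each of these values lay within the AA range, except the cortex level of Wnt7a in mouse 9643 and the hippocampus level of Lef1 in the same mouse.

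The 18 AA + RSD + minocycline mice, which share the AA + RSD libraries as their comparison, also gave 0 called genes among the 10 by edgeR and DESeq2 (0% of all genes for the cortex, 0.0419% for the hippocampus) and 0 at an unadjusted p under 0.05 (background 13.1% and 6.95%). Axin2 had 29.4 ± 6.34 CPM in the cortex (0.37, SE 0.19, adjusted p = 0.39), and 16 of 18 lay above both AA + RSD mice. In the hippocampus Axin2 had 26.9 ± 7.22 CPM (0.31, SE 0.24, adjusted p = 0.723), and it was at -0.03 with the number series and -0.07 with the share of reads outside genes as a term. There 12 of the 18 mice had 25.9 to 35.9 CPM, above both AA + RSD mice. The other 6, mice 5898, 5646, 5645, 5897, 5648 and 5896, had 14.6 to 20.4 CPM, below both. These come last of the group in the sample order, and the part of this split was not tested. Lrp5 had 9.29 ± 1.37 CPM in the cortex, 17 of 18 below both (-0.30, SE 0.16, adjusted p = 0.403), and Wnt7a 12.2 ± 1.39 CPM in the hippocampus, 18 of 18 below both (-0.31, SE 0.19, adjusted p = 0.696). With 2 AA + RSD mice the precision was low. In simulated counts for AA + RSD against AA mice, edgeR called 5% of genes changed 1.5-fold in the hippocampus. These counts had the same dispersion for every gene and no number series, so the share is not that for the 10 genes.

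Whether an effect differed between the tissues was tested as an interaction for 4 comparisons, in fits without a term for the mouse. By edgeR 0 of the 10 genes were called in each, beside 0%, 0.00413%, 0% and 0% of all genes called for SS against AA, for the genotypes under RSD and minocycline, for RSD in SS mice and for minocycline in SS + RSD mice. None of the 10 had an unadjusted p under 0.05 in any of them (background 1.62%, 7.24%, 2.32% and 2.69%). The smallest p among the members belonged to Wnt7a under RSD and minocycline, where the genotype difference in the hippocampus minus that in the cortex was -0.27 (SE 0.16, p = 0.0819, adjusted p = 0.761, edgeR). Lef1 had 0.20 (SE 0.21) between the tissues for SS against AA, and Fzd4 had 0.36 (SE 0.23) for RSD and -0.32 (SE 0.21) for minocycline.

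Across mice, once group means were subtracted, some of the genes varied together. These are descriptions over 65 cortex and 63 hippocampus libraries, which share their processing. Adgra2 and Reck, the partners in Wnt7 recognition, had log2 CPM that correlated at 0.79 (cortex) and 0.89 (hippocampus). Axin2 went with Reck (0.70 and 0.89) and with Adgra2 (0.67 and 0.91), while Ctnnb1 went against Axin2 (-0.34 and -0.78). The ligands Wnt7a and Wnt7b stood at 0.42 and 0.70, and Ctnnb1 and Wnt7a at 0.69 and 0.44.

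The share of reads outside genes ran along the same line. Its correlation was 0.79 and 0.51 with Reck, 0.66 and 0.57 with Axin2, 0.58 and 0.51 with Adgra2 and -0.44 and -0.50 with Ctnnb1 in cortex and hippocampus, and its part in the relations among the genes was not tested. The summed microglia markers correlated at -0.60 and -0.76 with Axin2, -0.55 and -0.68 with Reck and 0.65 and 0.70 with Ctnnb1, and the summed red blood cell markers at -0.64 and -0.74 with Axin2, -0.51 and -0.70 with Reck and 0.46 and 0.67 with Ctnnb1, and their part was not tested either. The genes of most similar pattern to Lef1 over all 22350 and 22820 genes searched were endothelial in the cortex, Flt1 (0.72) and Cdh5 (0.68), with Flt1 (0.79) and Epb41 (0.76) in the hippocampus.

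By the same measure, Adgra2 was closest to Kirrel (0.87) and Nid1 (0.85) in the cortex and Stab1 (0.93) and Tns2 (0.93) in the hippocampus. Reck was closest to Ice1 (0.90) and Uvssa (0.89), and to Eogt (0.93) and Helz2 (0.91). Fzd4 was closest to Itih5 (0.81) and Wasf2 (0.75) in the cortex and to Slc16a12 (0.89) and Trpm3 (0.84) in the hippocampus. The remaining genes gave other neighbours. Lrp5 lay near Epas1 (0.81) and Wasf2 (0.79), and Lamb2 (0.85) and Tns1 (0.84). Ctnnb1 lay near Klhl13 (0.88) and Cdc42se2 (0.86), and Psmd5 (0.90) and Sdcbp (0.89). Axin2 lay near Rab11fip3 (0.88) and Unc13a (0.88), and Fbrs (0.96) and Sf1 (0.96). Among the ligands, Wnt7a lay near Pcp4l1 (0.83) and Dlx2 (0.81), and Celf6 (0.77) and Prmt2 (0.76), and Wnt7b near Slc25a22 (0.75) and Hey1 (0.75), and Tmem179 (0.83) and Thra (0.81). Apcdd1 was closest to Fam222a (0.68) and Smarcd1 (0.68), and to Pde1b (0.76) and Trp53i11 (0.76).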

How the data were processed

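Polyadenylated RNA of mouse cortex and hippocampus was sequenced from a single end by a strand-marking kit. The authors aligned reads to GRCm39 with STAR and deposited raw counts per GENCODE gene, made while mapping (versions and strand setting are not given in the sources used here). Of the 55416 genes, 5111 have no symbol. The 4 summary lines that name no gene stayed out of library sizes (median of all reads in cortex and hippocampus: unmapped 12.4% and 13.3%, multimapping 4.98% and 4.83%, outside genes 8.25% and 7.59%, on several genes 1.25% and 1.22%), and 3 columns without a known group were not used.

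The deposited counts went through edgeR 4.0.16 under R 4.3.3: filterByExpr by group (minimum count 10, minimum total 15), TMM scaling, the quasi-likelihood test, and Benjamini-Hochberg adjustment over all genes tested. Genes with an adjusted p under 0.05 are called. For treatments, all groups of 1 genotype in 1 tissue shared a model, as the study's methods describe, for the genotypes all groups of 1 tissue did, and for the tissues all libraries did. Printed CPM are not TMM scaled, so their ratio can differ from the fitted fold change. The p-values of comparisons within a tissue measure the spread between mice. Those between the tissues and of the interactions come from main fits that treat both libraries of a mouse as independent. Fold changes are named for each gene called, for the 2 members of smallest p per comparison and for Ctnnb1 in SS mice, and up to 8 other pathway and barrier genes called. The members, the 21 lists and this rule were chosen with earlier results of these data known.

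The cortex and hippocampus of a mouse are paired by its number. In 62 pairs with a value the deviations correlated at 0.129 to 0.827 (median 0.465), all above 0.1. The fit with the mouse as a block took its dispersion from the most abundant genes. Alternatives numbered 27, among them DESeq2 1.42.0, RLE factors, scaling by reads on genes, no filter, the number series or share of reads outside genes as a term, and leaving mice out. Those chosen after seeing the data are named in the closing section. In simulated counts, edgeR called 59% of genes changed 1.5-fold and 100% of those changed 2-fold for SS against AA mice in the cortex (20765 genes), 36% and 98% for SS + RSD against SS mice there (19059 genes), 17% and 75% for SS + minocycline against SS mice in the hippocampus (20024 genes) and 5% and 60% for AA + RSD against AA mice there (20450 genes). Motifs were searched with pysam 0.24.0 in GRCm39 and in RefSeq promoter windows. Not every match is reported here.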

Additional observations from a re-analysis of the deposited data

Results flagged for a closer look

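In groups of 4 to 10 mice, the highest or lowest library was set against the others for each of the 10 genes. Of 60 groups tested 3 held such a library, and chance gives about 1 in 20 groups. Ctnnb1 was 629 CPM in the cortex of SS + RSD mouse 9621, where the other 5 mice had 400.8 to 448.1 CPM. This library also stood at 32.95% of the scale from cortex to hippocampus that AA and SS libraries set, the other 5 at 9.15% or less. Lrp5 was 18.18 CPM in the hippocampus of SS mouse 5349, where the others had 11.59 to 14.29 CPM, and this library also had 2447 CPM of choroid plexus markers and 467 CPM of endothelial markers. Lef1 was 9.898 CPM in the hippocampus of SS + RSD mouse 9621, where the others had 5.243 to 6.906 CPM.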

How the results depend on the processing

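Under the alternatives, 906 single-gene values kept their direction and their side of the threshold, 133 kept the direction and lost the call, 10 gained a call and 20 reversed. Of the counts of called members 237 stayed within 1.5 times the main count and 9 did not. For SS + RSD against SS mice the count, 0 in each tissue, was 1 in the cortex and 1 in the hippocampus when libraries were scaled by reads on genes (Axin2, adjusted p = 0.0396 and 0.0496) and by DESeq2, 3 and 1 in a model of only the groups compared, and 0 to 1 in the hippocampus without 1 SS + RSD mouse (1 without mouse 5400, Axin2 at -0.53). For SS + minocycline against SS mice in the cortex it was 2 within series B, beside 27.1% of all genes (Reck -0.69, adjusted p = 0.0293, and Wnt7b 0.65, adjusted p = 0.0217). For minocycline in SS + RSD mice it was 1 in the cortex without the 5 cortex libraries that stood apart on the tissue scale (Ctnnb1). Between the tissues the count ranged from 5 to 6, also with the mouse as a block. That pairing gave 0 called members in each interaction, and 319, 88, 410 and 18 genes of the whole table, where the unblocked fits gave 0, 1, 0 and 0. The cause was not tested. Scaling by reads on genes and leaving out SS + RSD mice in turn or these 5 libraries or hippocampus mouse 9810 were chosen after seeing the data, as was the motif window. The interactions were not refitted without these libraries.

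Most reversals were of values near 0. Ctnnb1 between the genotypes under RSD and minocycline in the cortex (-0.0015) was 0.017 with RLE factors, 0.040 scaled by reads, 0.017 by DESeq2, 0.013 without a filter, 0.020 without the 4 mice of doubtful genotype, 0.012 with mouse 9674 kept, 0.022 in a model of these groups, 0.023 with the share of reads outside genes as a term and 0.034 in series B. When the number series was a term, the minocycline effect in SS + RSD mice was 0.042 for Ctnnb1, -0.21 for Tle2 and -0.029 for Dvl2 in the cortex, and 0.15 for Wnt7a, -0.11 for Tle2 and 0.017 for Tnfrsf19 in the hippocampus. Ctnnb1 in SS + minocycline mice was -0.046 scaled by reads and ranged from -0.00059 (without mouse 9889) to 0.046 without 1 SS + minocycline mouse in the cortex, and -0.0024 without mouse 9889 in the hippocampus. Axin2 between AA + RSD + minocycline and AA + RSD mice in the hippocampus was -0.028 with the number series and -0.068 with the share outside genes as a term.

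The number of genes called in the whole table moved more. For SS against AA mice, 47 in the cortex became 12 in series A and 265 in series B, and 37 in the hippocampus became 10 and 12. Under RSD and minocycline, 137 in the cortex became 82 in a model of these groups and 69 without the 5 cortex libraries, and 638 in the hippocampus became 115 by DESeq2, 36 in a model of these groups, 75 with the share outside genes and 83 in series B. For SS + RSD against SS mice, 511 in the cortex became 862 with RLE factors, 1514 scaled by reads, 2097 by DESeq2, 2 without a filter, 285 without the 4 mice, 3348 in a model of these groups, 0 with either term, 1 in series A, 2 without mouse 5354 and 0 without the 5 cortex libraries or without mouse 5391, 9615, 9616 or 9621. In the hippocampus 643 became 342, 1155, 1489, 0, 183 and 1462 under the first 6 of these, and 0 with either term, in series A and without any of those 5 mice. For minocycline in SS + RSD mice, 1762 in the cortex (1270 higher, 492 lower) became 2705 by DESeq2, 1147 without a filter, 0 and 4 with the series and the share outside genes as terms, and 1136, 863 and 869 without mouse 5354, 9615 and 9616, and scaled by reads on genes 2210 were higher and 147 lower. In the hippocampus 1234 became 2298, 263, 0 and 0, 774 without the 4 mice, 724 without mouse 9810, and 2, 7, 16, 129 and 430 without mouse 5354, 5391, 9615, 9616 and 9621. SS + minocycline mice gave 5225 genes in the cortex within series B, against 0. For AA + RSD against AA mice, 0 in the cortex became 21 by DESeq2 and 187 with mouse 9674 kept, and 9 in the hippocampus became 15 and 256, 19 without a filter, 2 in a model of these groups, 0 with the series as a term and in series A, and 2 without mouse 9643. For minocycline in AA + RSD mice, 0 in the cortex became 78, 789, 1 in a model of these groups and 1217 with the series as a term, and 9 in the hippocampus became 21, 576, 17 without a filter, 0 in a model of these groups, 1380 and 5 with the series and the share outside genes as terms and 2 without mouse 9643. The interactions gave 1, 7, 0 and 1 genes by DESeq2, and that under RSD and minocycline 5 with the identical libraries kept and 43 without the 4 mice.

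Called pathway and barrier genes kept their call in few or many alternatives. Under RSD and minocycline Slc2a1 kept it in 12 of 12 in either tissue, Abcb1a in 12 of 12, Slc7a5 in 10 of 12, Sox17 in 11 of 12 and, for SS against AA mice, in 12 of 13, and Rspo1 in 4 of 12. Tle2 and Dvl2 for RSD kept it in 8 of 18 in the cortex and 7 of 18 in the hippocampus. The fewest reads on any of the 10 genes in a library used were 67, for Lef1, and counting error was not separated from the spread between mice.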
